A study of Mus musculus with 6 samples.

Results

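Oxidative phosphorylation genes encode the respiratory chain and ATP synthase of the inner mitochondrial membrane. They were taken here as every row of the value table annotated with exactly 1 gene symbol that begins with Nduf, Uqcr, Cox4 to Cox8 or Atp5, or that is Sdha, Sdhb, Sdhc, Sdhd, Cyc1 or Cycs. This gave 76 genes of the 14807 with 1 symbol, on 82 of 17213 transcript clusters, and the brightest cluster stood for each of the 6 genes with 2 clusters. By complex the genes number 30 for complex I, 4 for complex II, 10 for complex III with cytochrome c, 14 for complex IV and 12 for complex V, and 6 are assembly factors of complex I. Ndufa4 is counted with complex IV, where its product is known to sit despite the name. All 76 matched the RefSeq gene table by Entrez identifier under the same symbol. Another 16 clusters carried several symbols, at least 1 of them of this family, and were left out, as were Atp5c1, Cox6b2, Cox7a1, Cox7a2l, Cox8c and Ndufa4l2, which were not analysed here. Of those 16, 15 had a negative difference, their median was -0.29 and 0 were called, and the second clusters of the 6 genes had the sign of the first.

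The cells were N2A, a mouse neuroblastoma line, and RNA was hybridised to Affymetrix mouse exon arrays whose deposited values are 1 signal per gene and array. Of the 6 arrays, 3 came from cells given an empty vector and 3 from cells given a short hairpin RNA against PTB, the RNA-binding protein made by Ptbp1, whose protein the labels report as reduced by close to 80%. All groups share the same line and culture medium, the controls carry no hairpin of another sequence, and the time between treatment and harvest is not given in the sources used here. The titles call the arrays of a group biological replicates without saying how the cultures were separated, so the p-values measure the spread between these arrays.

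Electrons enter the chain at complex I, which oxidises NADH, or at complex II, which oxidises succinate and is also an enzyme of the citric acid cycle. They pass through ubiquinone to complex III, by cytochrome c to complex IV, and there to oxygen, while the protons pumped on the way drive ATP synthesis by complex V. Every complex except complex II joins subunits of nuclear and mitochondrial genes, and the array rows used here hold the nuclear ones. Neurons are known to depend on this pathway, whereas dividing tumour lines such as N2A also draw on glycolysis.

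Ptbp1 itself measured 3387, 4203 and 4404 in empty vector cells and 1307, 1040 and 1957 in PTB shRNA cells. It fell by 1.51 on the log2 scale (adjusted p = 0.0402, limma), although with a pseudocount of 1 the adjusted p was 0.0605 and without any 1 array it lay between 0.0536 and 0.132. No cluster of the series passed in the runs with 1 array left out. Summed signal per array ran from 9098056 to 12509077 and the array medians from 183 to 206. Of 14 measured markers of sympathoadrenal or neuronal cells, Stmn2, Gap43, Elavl4, Phox2a, Hand2 and Chgb were above a mean of 1000 in both groups, whereas Nefl, Nefm and Th stayed under 50. The summed signal of 10 striated muscle markers lay between 721 and 944 with empty vector and between 868 and 1028 with PTB shRNA, and that of 5 glial and 4 leukocyte markers did not exceed 145 on any array. Summed signal ran from 104 to 114 and from 94 to 194 for 7 brown fat markers, from 547 to 686 and from 608 to 698 for 8 testis germ cell markers, and from 283 to 366 and from 360 to 585 for 8 fibroblast markers, in the same order. A single gene in each of the neuronal, muscle and fibroblast lists rose, against 1.36% of all clusters called higher. These were Gata3 (0.87, adjusted p = 0.0384, limma), Ryr1 (0.62, 0.0468) and Pdgfra (1.17, 0.0342). After quantile normalization the differences were 0.94, 0.45 and 0.98. Each array was also centred on the median of the oxidative phosphorylation genes. There Ryr1 did not pass (adjusted p = 0.0585), while Gata3 (0.0370) and Pdgfra (0.0442) did. Ryr1 and Pdgfra were dim, with mean signals of 58.7 and 36 in empty vector cells and 99 and 102 in PTB shRNA cells. Other alternatives were not read for these genes. The part of these markers in the results was not tested.

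PTB shRNA was compared with empty vector to ask which respiratory chain RNAs had another level in cells given the hairpin. Differences below are PTB shRNA minus empty vector on log2(signal + 16), and a gene is said to have fallen or risen only where its adjusted p, over all clusters, was under 0.05. Of the 76 genes, 3 fell and 0 rose: the complex I subunit genes Ndufv2 and Ndufs4 and the assembly factor gene Ndufaf7. That is 3.95% of the genes, against 3.37% of all clusters called lower and 5.40% of the brightest 10% of clusters, while 1.36% of all clusters were called higher and 4.73% in either direction. After quantile normalization Ndufv2 and Ndufa8 were the members called, both lower, against 2.87% of all clusters called lower, 2.92% higher and 5.79% in either direction. An unadjusted p under 0.05 was reached by 24 of the 76 (31.6%), against 25.4% of all clusters. Since the arrays measure bulk RNA, a lower signal cannot be told apart as less RNA per cell or as fewer cells making it.

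Small negative differences ran through most of the set, and also through bright clusters generally. The difference was negative in 70 of the 76 genes (92.1%), with a median of -0.29, a lowest value of -0.82 and a highest of 0.27, but after quantile normalization it was negative in 45 with a median of -0.09. Over all clusters 51.4% of differences were negative and the median was 0.00, while in the brightest 10%, which hold 38 of the 76 genes, 82.6% were negative and the median was -0.25. The 38 genes in that brightest group had a median of -0.24. The 14 genes in the next brightest 10% had a median of -0.31 against -0.17 for all clusters there, and the 10 genes in the one after that -0.36 against -0.19. All 3 PTB shRNA arrays lay below all 3 empty vector arrays for 26 genes (34.2%), against 19.0% of all clusters and 39.5% of the brightest 10%. No gene had the reverse pattern, which 10.3% of all clusters showed.

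**Figure D1:**
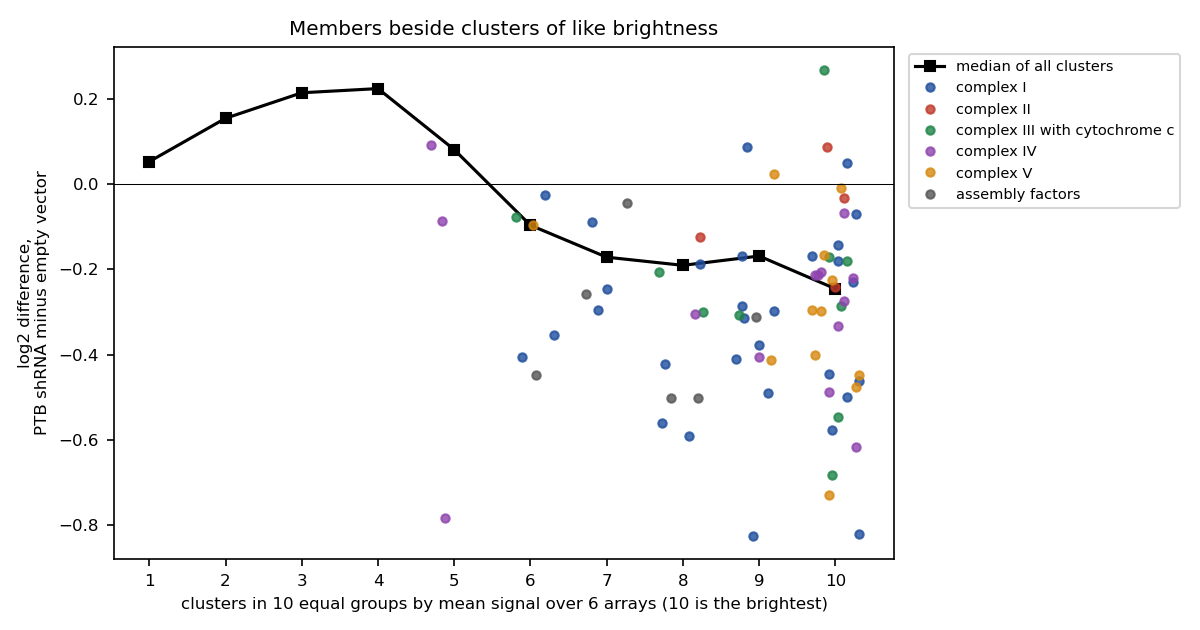
The plot sets the log2 difference (PTB shRNA minus empty vector, values as deposited) of each of the 76 genes, one dot per gene coloured by class, beside the median difference of all clusters (black squares) in 10 equal groups of mean signal over the 6 arrays. No gene lies in the 4 dimmest groups, where the medians are positive, and 38 lie in the brightest, where the median of all clusters is -0.25. After quantile normalization the genes' median moves from -0.29 to -0.09.

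The median level of the 76 genes varied from array to array within groups as well as between them. Their median log2 signal, relative to each gene's own mean over the 6 arrays, was -0.02, 0.15 and 0.31 on empty vector arrays 1, 2 and 3 and -0.10, -0.27 and -0.08 on the PTB shRNA arrays. Empty vector array 3 gave the highest signal for 57 of the genes, and PTB shRNA array 2 the lowest for 48. The same 2 arrays had the highest and the lowest summed signal of the series, and the brightest 10% of all clusters had medians of -0.02, 0.13 and 0.26 and of -0.04, -0.25 and -0.07. As a share of all signal on an array, the 76 genes made up 1.56%, 1.61% and 1.67% on the empty vector arrays, against 1.56%, 1.49% and 1.58% on the others, so that the groups overlapped. Without empty vector array 3 the median difference was -0.18 and 60 of the 76 were negative, and without empty vector array 1 it was -0.40 with 73 negative. The part of array brightness in the differences was not tested beyond the normalizations given here.

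**Figure D2:**
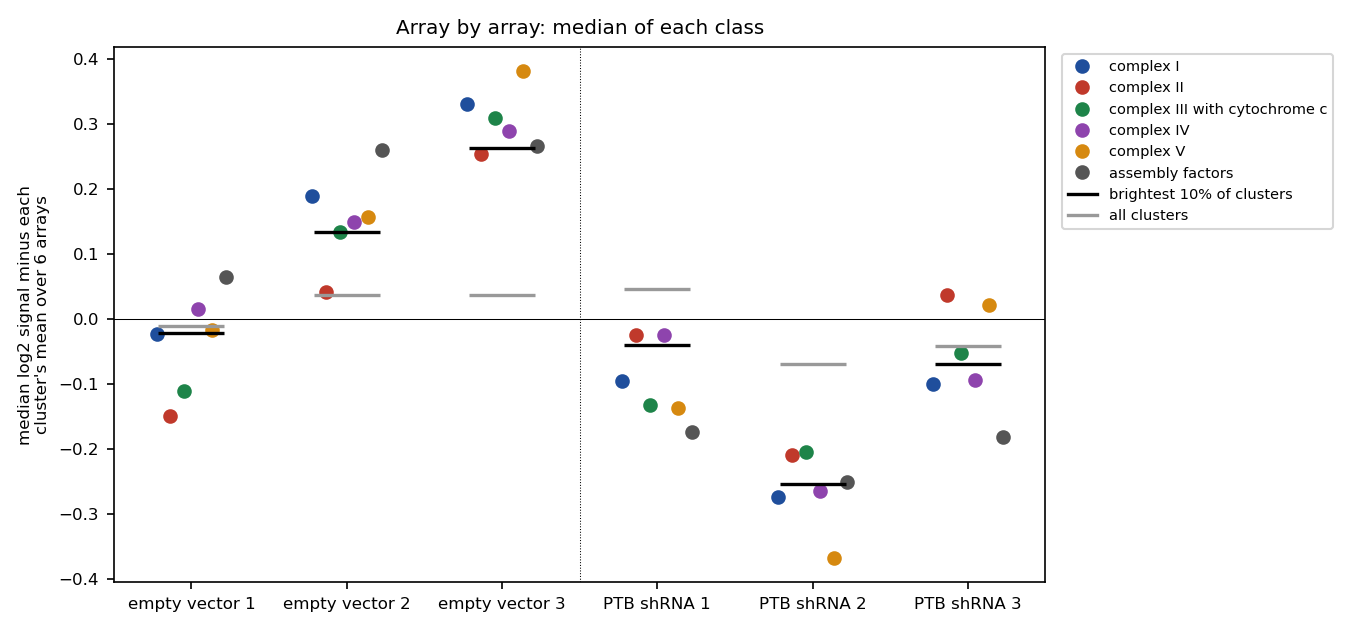
Each dot is the median, over the genes of 1 class, of log2 signal minus the gene's mean over the 6 arrays, for each array of the empty vector and PTB shRNA groups, with bars for the brightest 10% of clusters (black) and all clusters (grey). All class medians, like that of the brightest 10%, are highest on empty vector array 3 and lowest on PTB shRNA array 2. The groups overlap for complexes II, III and V but not for complexes I and IV or the assembly factors, whose medians run from 0.06 to 0.27 and from -0.25 to -0.17.

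Complex I genes had a median difference of -0.31, or -0.11 after quantile normalization, and 28 of the 30 were negative, against 20 after it. Ndufv2, an iron-sulphur subunit of the part that oxidises NADH, measured 2243, 2609 and 2976 in empty vector cells and 1388, 1321 and 1706 in PTB shRNA cells. The groups did not overlap, and Ndufv2 fell by 0.82 ± 0.15 (SE) on the log2 scale (adjusted p = 0.0485, limma). After quantile normalization the difference was -0.60 (adjusted p = 0.0391). Ndufs4, an accessory subunit whose loss is known to cause fatal brain disease in mice, measured 1037, 1096 and 1054 in empty vector cells and 716, 662 and 773 in PTB shRNA cells. Its empty vector arrays differed little from each other and stood well above the other group, and it fell by 0.56 ± 0.09 (adjusted p = 0.0373, and 0.0567 after quantile normalization with a difference of -0.37).

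Ndufaf7, a methyltransferase needed for complex I assembly, measured 767, 822 and 810 in empty vector cells and 612, 534 and 537 in PTB shRNA cells. It fell by 0.50 ± 0.09 (adjusted p = 0.0450), but did not pass after quantile normalization (-0.31, adjusted p = 0.0907) or median centring of the arrays (-0.48, adjusted p = 0.0511). None of the 3 genes passed with a pseudocount of 1 (adjusted p = 0.0704 for Ndufv2, 0.0557 for Ndufs4 and 0.0640 for Ndufaf7). Nor did any pass with 1 array left out, where the adjusted p ranged from 0.0576 to 0.154 for Ndufv2, from 0.0548 to 0.126 for Ndufs4 and from 0.0835 to 0.146 for Ndufaf7. No cluster of the series passed in those runs, so this does not set the 3 genes apart.

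**Figure D3:**
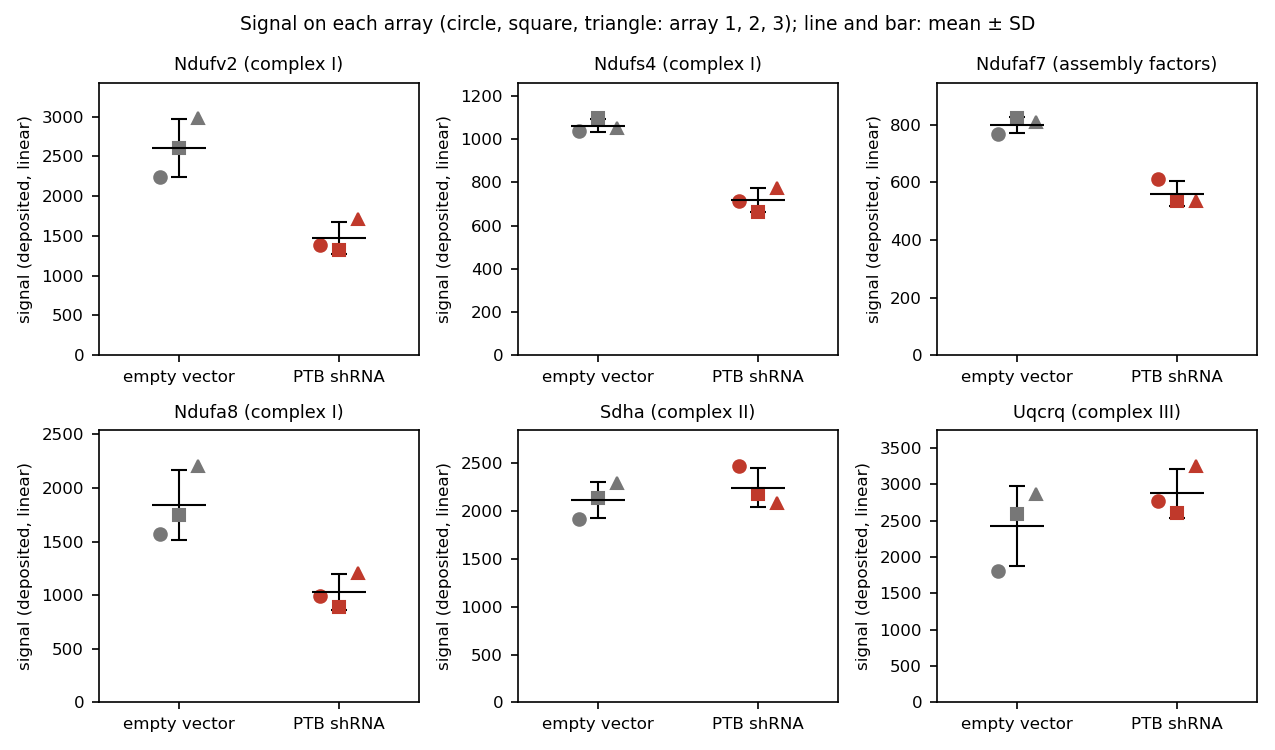
Deposited linear signal of 6 genes on each array, with the mean and SD of 3 arrays per group as a line and bar. Ndufv2, Ndufs4, Ndufaf7 and Ndufa8 lie lower on all PTB shRNA arrays than on any empty vector array, whereas the groups overlap for Sdha and Uqcrq.

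The starts of these 3 genes are shown because they are the ones that fell, and that of Sdha, of complex II, because it is a gene of this pathway with a small positive difference. Each is 250 bases before to 50 bases after the RefSeq start, written 5′ to 3′ on the gene's strand in GRCm38.p6, with matches to the searched motifs in capitals. Ndufv2 lies on the minus strand at chr17:66101510-66101809, Ndufs4 on the minus strand at chr13:114388045-114388344, Ndufaf7 on the plus strand at chr17:78936885-78937184 and Sdha on the minus strand at chr13:74350191-74350490.
Ndufv2: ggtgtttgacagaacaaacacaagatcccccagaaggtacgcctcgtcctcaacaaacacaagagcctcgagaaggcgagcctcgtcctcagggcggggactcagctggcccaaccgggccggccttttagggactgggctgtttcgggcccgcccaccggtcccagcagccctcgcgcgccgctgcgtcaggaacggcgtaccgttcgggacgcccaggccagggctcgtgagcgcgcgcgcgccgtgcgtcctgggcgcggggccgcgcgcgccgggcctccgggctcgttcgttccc
Ndufs4: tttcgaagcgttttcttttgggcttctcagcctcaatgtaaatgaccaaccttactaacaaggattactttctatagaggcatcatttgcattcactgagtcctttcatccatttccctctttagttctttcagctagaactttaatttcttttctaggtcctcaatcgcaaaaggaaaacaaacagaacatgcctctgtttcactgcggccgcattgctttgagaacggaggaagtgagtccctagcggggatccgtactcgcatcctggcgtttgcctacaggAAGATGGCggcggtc
Ndufaf7: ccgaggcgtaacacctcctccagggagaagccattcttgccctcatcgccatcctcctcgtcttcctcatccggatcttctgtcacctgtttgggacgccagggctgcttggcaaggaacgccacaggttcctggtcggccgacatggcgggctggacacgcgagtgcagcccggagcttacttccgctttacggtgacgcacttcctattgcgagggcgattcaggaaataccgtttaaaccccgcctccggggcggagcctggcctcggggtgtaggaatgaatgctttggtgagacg
Sdha: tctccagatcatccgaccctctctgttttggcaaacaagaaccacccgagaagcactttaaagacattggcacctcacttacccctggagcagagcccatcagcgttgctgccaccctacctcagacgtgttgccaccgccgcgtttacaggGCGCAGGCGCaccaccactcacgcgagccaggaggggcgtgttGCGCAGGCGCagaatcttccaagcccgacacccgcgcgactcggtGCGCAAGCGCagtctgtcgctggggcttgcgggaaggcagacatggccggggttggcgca
The motifs, searched on both strands, were GCGCA and GCGC with any 1 base between them for NRF1 and CCGGAAG for the ETS family with GABP, both known activators of respiratory genes, AAGATGGC for YY1, and TATAAA for the TATA box. The ETS motif ends with the 3 letters that open the YY1 motif, but no member held both. The capitals mark 1 YY1 match in Ndufs4 and 3 NRF1 matches in Sdha, and no match lies in the windows of Ndufv2 and Ndufaf7.

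Of the 76 genes, 63 had a promoter in the RefSeq table, 3 of them with several starts. The NRF1 motif was in 14 of the 63 (22.2%), against 8.74% of the 11836 measured genes with a promoter. The YY1 motif was in 8 (12.7%, against 4.13%), the ETS motif in 14 (22.2%, against 15.0%) and the TATA box in 7 (11.1%, against 12.7%). The median log2 difference was -0.27 for the genes with the NRF1 motif and -0.30 for those without, and -0.35 and -0.30 for YY1. For the ETS motif it was -0.21 with and -0.31 without. These counts describe letters in the windows, not bound sites.

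The largest difference of all 76 genes was that of Ndufa8, an accessory subunit on the intermembrane face of the membrane arm, which measured 1572, 1747 and 2207 in empty vector cells and 996, 887 and 1211 in PTB shRNA cells. The groups did not overlap, and the difference of -0.82 ± 0.18 did not pass (adjusted p = 0.0627), though it did after quantile normalization (-0.62, adjusted p = 0.0479) and after median centring of the arrays (adjusted p = 0.0453). Among the other core subunits that carry or hold the redox centres, Ndufs8 (-0.59, adjusted p = 0.0933) and Ndufs7 (-0.58, adjusted p = 0.0877) had lower signals on every PTB shRNA array. Ndufv1, which binds NADH, differed by -0.30 (95% interval -0.74 to 0.15) and Ndufs3 by -0.07 (-0.44 to 0.30). Ndufs1, a large iron-sulphur subunit of the same NADH-oxidising part, measured 1377, 1709 and 1780 in empty vector cells and 1710, 1675 and 1619 in PTB shRNA cells, a difference of 0.05 (-0.25 to 0.35). The 6 measured core genes thus ran from -0.82 to 0.05, with a median of -0.44 (-0.22 after quantile normalization).

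The 9 accessory genes of the peripheral arm had a median of -0.18, which became 0.02 after quantile normalization, and 8 of the differences were negative. The exception was Ndufs6, an accessory subunit that binds zinc, at 858, 990 and 1338 in empty vector cells and 967, 1192 and 1187 in PTB shRNA cells, where the groups overlap (0.09, 95% interval -0.39 to 0.56). All 14 accessory genes of the membrane arm were negative, with a median of -0.33, whereas after quantile normalization 12 were negative with a median of -0.16. In 5 of the 14 (35.7%) the PTB shRNA arrays lay below without overlap, against 19.0% of all clusters and 39.5% of the brightest 10%. Most of the 14 are dimmer than that brightest group, and the share among clusters of like brightness was not computed. Ndufa1, whose loss is known to stop complex I assembly, had the smallest of these differences (-0.03, with signals of 344 ± 15.3 and 338 ± 35.4, SD, n = 3). Ndufab1, the mitochondrial acyl carrier protein found in both arms, went from 2239 ± 205 to 1581 ± 149 (-0.50, adjusted p = 0.0702).

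The assembly factor genes of complex I, which build the enzyme without staying in it, had a median of -0.38 (-0.21 after quantile normalization), and all 6 were negative, against 5 after it. In 4 of the 6, Ndufaf3, Ndufaf4, Ndufaf5 and Ndufaf7, the PTB shRNA arrays lay below without overlap, as in 19.0% of all clusters and 39.5% of the brightest 10%. All 6 genes are dimmer than that brightest group, and the share among clusters of like brightness was not computed. Ndufaf3, which acts together with Ndufaf4 early in assembly, measured 913 ± 82.1 and 640 ± 51.2 (-0.50, adjusted p = 0.0628). Ndufaf5, a hydroxylase known to act on Ndufs7, measured 352 ± 43.6 and 253 ± 20.3 (-0.45, adjusted p = 0.09). Ndufaf1 was close to level at 487 ± 82.6 and 470 ± 65.3 (-0.04, 95% interval -0.46 to 0.37).

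Assembly factors outside the family names were read from 5 lists with 47 measured genes, of which 5 fell and 0 rose (10.6%, against 3.37% and 1.36% of all clusters). In the 3 groups of 10% of clusters that are next in brightness below the brightest, 5.75% to 7.73% of clusters were called lower. Cmc1 and Foxred1, described below, lie in the group after those, where 5.35% were. The 47 genes also lie in other groups, and the share among clusters of like brightness was not computed. Cmc1, which helps the first steps of complex IV assembly, measured 483, 475 and 491 in empty vector cells and 258, 234 and 251 in PTB shRNA cells. Its arrays agreed closely within groups, and it fell by 0.92 ± 0.08 (adjusted p = 0.0223). Bcs1l, the ATPase that inserts the Rieske protein into complex III, measured 773, 847 and 864 in empty vector cells and 414, 352 and 464 in PTB shRNA cells, and fell by 0.99 ± 0.12 (adjusted p = 0.0320).

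Surf1, another complex IV assembly factor, measured 928, 956 and 933 in empty vector cells and 605, 520 and 580 in PTB shRNA cells, and fell by 0.71 ± 0.09 (adjusted p = 0.0320). Cox15, which makes the heme A of complex IV, fell by 0.65 ± 0.11 (adjusted p = 0.0411), and Foxred1, an assembly factor of complex I, by 0.78 ± 0.13 (adjusted p = 0.0399). For all 5 genes the groups did not overlap, and after quantile normalization the differences were -0.80, -0.81, -0.52, -0.45 and -0.69 in the order given, with adjusted p between 0.0231 and 0.0459. With any 1 array left out none passed, as no cluster of the series did, with adjusted p from 0.0536 to 0.137. A pseudocount of 1 gave 0.0598 for Cox15 and 0.0579 for Foxred1. The lists' median difference was -0.14 (-0.11 after quantile normalization), with 35 of 47 negative. Among those not called, Ecsit of complex I assembly was at -0.73 (adjusted p = 0.0641), the cytochrome c heme lyase gene Hccs at -0.53 (0.136), Tmem242 of complex V assembly at -0.52 (0.0689) and Dmac2l at -0.37 (0.209).

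Complex II had the median nearest to 0 of the 5 complexes as deposited, at -0.08, with 3 of 4 genes negative. After quantile normalization its median was the furthest from 0, at 0.19, with none negative. Without 1 array the deposited median of these 4 genes ran from -0.21 to 0.03, so its sign is not fixed. Sdha, the flavoprotein that oxidises succinate, measured 1912, 2137 and 2289 in empty vector cells and 2472, 2180 and 2082 in PTB shRNA cells. Its groups overlap, with a difference of 0.09 and a 95% interval of -0.19 to 0.37. Sdhc, a membrane anchor, measured 4424, 4838 and 5318 against 4896, 4131 and 5261 (-0.03, -0.35 to 0.29). The iron-sulphur subunit gene Sdhb was at -0.24 (-0.61 to 0.13) and the anchor gene Sdhd at -0.12 (-0.66 to 0.41), so that none of the 4 separated the groups. Of the 2 measured complex II assembly genes, Sdhaf2, which attaches the flavin to Sdha, was at 0.27 (adjusted p = 0.223) and rose after quantile normalization (0.48, adjusted p = 0.0389), while Sdhaf4 was at 0.15 (adjusted p = 0.531). Whether complex II differs from the other complexes was not tested.

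**Figure D4:**
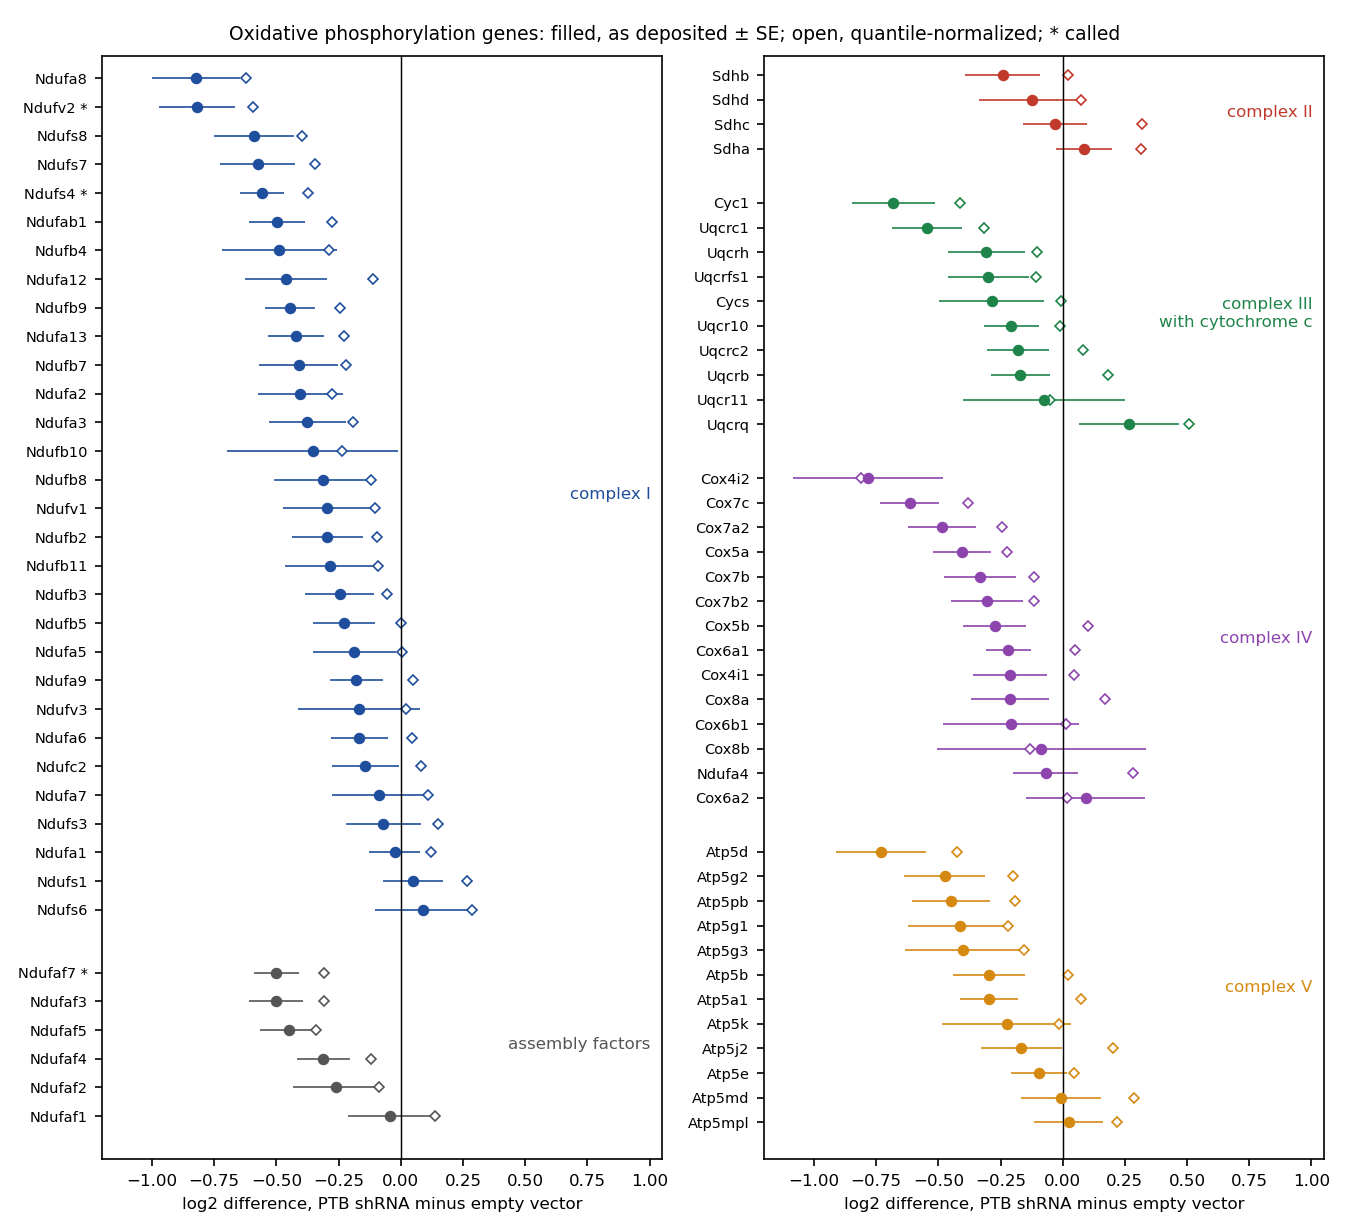
Log2 difference (PTB shRNA minus empty vector) of each of the 76 genes, ordered by size within its class, as deposited with the standard error of limma (filled dots and bars) and after quantile normalization (open diamonds). An asterisk marks the 3 genes with adjusted p under 0.05 as deposited, and 70 filled dots but 45 open diamonds lie below 0.

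Complex III with cytochrome c had a median of -0.25 (-0.03 after quantile normalization), 9 of 10 genes negative (7 after it) and none called. Cyc1, the cytochrome c1 that hands electrons to cytochrome c, measured 4225, 4926 and 5449 in empty vector cells and 3014, 2526 and 3585 in PTB shRNA cells. The groups did not overlap (-0.68 ± 0.17, adjusted p = 0.0783). Uqcrc1, a core protein, went from 3016 ± 192 to 2076 ± 322 (-0.55, adjusted p = 0.0860), while its partner Uqcrc2 was at -0.18 (0.08 after quantile normalization). Uqcrfs1, the Rieske iron-sulphur protein that Bcs1l inserts, was at -0.30 (adjusted p = 0.316), Uqcrh, the hinge protein, at -0.31 (0.289), the small subunit gene Uqcr11 at -0.08, and Cycs, cytochrome c itself, at -0.29 (0.456).

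The highest difference of all 76 genes was that of Uqcrq, a small subunit of complex III, picked out after its values were seen. It measured 1809, 2592 and 2866 in empty vector cells and 2774, 2601 and 3254 in PTB shRNA cells. The groups overlap, and the difference of 0.27 did not pass as deposited (adjusted p = 0.463) or after quantile normalization (0.51, adjusted p = 0.0894).

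Complex IV had a median of -0.25 (-0.05 after quantile normalization) and 13 of 14 genes negative (7 after it). Cox7c, a small subunit, measured 2969, 3105 and 2918 in empty vector cells and 2255, 1729 and 1901 in PTB shRNA cells. The groups did not overlap, and the difference of -0.62 ± 0.12 lay just outside the threshold (adjusted p = 0.0510), passing after median centring of the arrays (0.0373) but not after quantile normalization (-0.38, adjusted p = 0.116). A dimmer second cluster of Cox7c measured 154, 131 and 120 against 89, 69 and 86, a difference of -0.63 (adjusted p = 0.0601), and -0.76 after quantile normalization (adjusted p = 0.0351). Cox7a2 was at -0.49 (adjusted p = 0.101) and Cox5a at -0.40 (0.107), both with groups that did not overlap. Ndufa4 measured 5696 ± 642 and 5434 ± 628 (-0.07, 95% interval -0.39 to 0.26).

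Complex IV is the complex with tissue-specific versions of single subunits, and the common and the restricted forms are given side by side, each on its own row. Cox4i1, the common form of the largest nuclear subunit, measured 2761, 3166 and 3820 in empty vector cells and 2736, 2545 and 3070 in PTB shRNA cells (-0.21, adjusted p = 0.432, and 0.05 after quantile normalization). Cox4i2, the form known from lung and from cells at low oxygen, was dimmer at 245, 140 and 317 against 101, 143 and 127. Its groups overlap through empty vector array 2, and its difference of -0.78 ± 0.30 did not pass (adjusted p = 0.182). Without 1 array it ran from -1.09 to -0.54.

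Cox6a1 was at -0.22 (0.05 after quantile normalization) and Cox6b1 at -0.21 (0.01 after it). Cox6a2, the heart and skeletal muscle form, measured 143, 163 and 87 against 159, 140 and 114 (0.09, or -0.15 without empty vector array 3). Cox8a was at -0.21 (0.17 after quantile normalization), and its muscle form Cox8b measured 93, 93 and 281 against 146, 114 and 124. Empty vector array 3 decides the sign of Cox8b, which was -0.09 with it and 0.40 without it. Cox7b was at -0.33 (adjusted p = 0.224) and Cox7b2, known from testis, at 681 ± 85.4 and 548 ± 74.8 (-0.31, adjusted p = 0.260). The median of the 4 restricted forms was -0.20 and that of the 10 common ones -0.25, which turned to 0.03 after quantile normalization, against -0.12 for the restricted forms.

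Complex V had a median of -0.30, which became 0.00 after quantile normalization, with 11 of 12 genes negative before it and 6 after it, and none called. Atp5d, the delta subunit of the central stalk, measured 5498, 5722 and 6239 in empty vector cells and 3539, 2761 and 4382 in PTB shRNA cells. The groups did not overlap, and the difference was -0.73 ± 0.18 (adjusted p = 0.0809, and -0.43 with adjusted p = 0.142 after quantile normalization). The catalytic subunits Atp5a1 and Atp5b were both at -0.30 (adjusted p = 0.185 and 0.269), and at 0.07 and 0.02 after quantile normalization. Atp5e, the epsilon subunit that sits beside delta, was at -0.10 (0.04 after quantile normalization).

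The 3 genes Atp5g1, Atp5g2 and Atp5g3, which are known to make the same mature ring subunit with different import signals, had like differences of -0.41, -0.48 and -0.40, and -0.22, -0.20 and -0.15 after quantile normalization. None passed (adjusted p = 0.291, 0.147 and 0.353), and only Atp5g2 kept the groups apart, at 4485 ± 565 and 3236 ± 531. The stalk subunit gene Atp5pb was at -0.45 (adjusted p = 0.151). Atp5md, a small membrane subunit, differed least of all 76 genes, at 4104 ± 794 and 4042 ± 352 (-0.01, or 0.29 after quantile normalization).

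With each array centred on the median of the 76 genes themselves, a setting chosen after the data had been seen, differences show which genes departed from the set as a whole. None of the 76 passed in either direction, against 0.279% of all clusters called lower, 1.94% higher and 2.22% in either direction, and 9 of the 76 had an unadjusted p under 0.05, against 5187 of 17213 clusters. The widest departures were Uqcrq (0.58, adjusted p = 0.0713), Ndufa8 (-0.51, adjusted p = 0.0811) and Ndufv2 (-0.51, adjusted p = 0.0773). Sdha lay at 0.40 and Cyc1 at -0.37 on that scale, with adjusted p of 0.137 and 0.136. This centring puts genes on both sides of 0 by construction, here 31 below and 45 above. It also moved the median of all clusters to 0.31, so the counts called are not a like comparison with all clusters.

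Regulators and neighbours of the pathway were read from further lists. Of 23 measured regulators of mitochondrial biogenesis 1 fell and 0 rose, against 3.37% and 1.36% of all clusters (median -0.22, and -0.04 after quantile normalization). Yy1, a transcription factor with sites in many respiratory genes, measured 1422, 1350 and 1445 in empty vector cells and 979, 941 and 1000 in PTB shRNA cells. It fell by 0.52 ± 0.08 (adjusted p = 0.0342), while the difference was -0.33 after quantile normalization (adjusted p = 0.0849) and -0.50 after median centring of the arrays (0.0511), neither past the threshold. Gabpb1, a subunit of the GABP factor, was at -0.81 (adjusted p = 0.0569) and the receptor gene Esrrb, with signals of 23 or less on every array, at 0.86 (0.0851). Of 12 measured genes on the low-oxygen switch of respiration besides Cox4i2, Lonp1, the mitochondrial protease known to remove the common Cox4 subunit at low oxygen, fell by 0.60 ± 0.10 (adjusted p = 0.0379, and 0.0592 with a difference of -0.40 after quantile normalization). It was the 1 called gene of the 12, against the same 3.37% of all clusters. With each array centred on the median of the 76 genes, neither Yy1 (adjusted p = 0.356) nor Lonp1 (0.216) passed. The median of the 12 was -0.46 with 10 negative, and -0.42 with 9 negative after quantile normalization. Of all clusters 51.4% were negative as deposited, rising to 82.6% in the brightest 10%, and 8647 of 17213 were negative after quantile normalization. Egln1, the oxygen sensor that marks HIF for breakdown, was at -1.17 (adjusted p = 0.0556), and the mitophagy gene Bnip3 at -0.9985 (0.127). Both varied between the controls and were lowest there on empty vector array 2. Egln1 measured 1678, 1206 and 1960 in empty vector cells and 639, 597 and 879 in PTB shRNA cells. Bnip3 measured 1032, 600 and 1304 against 504, 532 and 359, and ran from -1.31 to -0.76 without 1 array.

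None of 18 measured genes of electron entry and ubiquinone synthesis passed, with the ubiquinone genes Coq8a at 0.79 (adjusted p = 0.0702) and Coq9 at -0.44 (0.108) furthest from 0. None of 10 measured genes of ATP and phosphate export passed either, with the outer membrane channel gene Vdac1 at -0.72 (adjusted p = 0.0576) and the carrier gene Slc25a14 at 0.51 (0.105). In those lists 6 of 18 and 5 of 10 genes had an unadjusted p under 0.05, against 25.4% of all clusters. The mitochondrially encoded subunits were not analysed here.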

How the data were processed

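The study measured total RNA of 6 N2A samples on Affymetrix mouse exon arrays, and groups and replicate numbers come from the titles. The authors deposited 1 linear intensity for each gene-level cluster and array, all integers and between -616 and 23431. The submitters' processing notes name GCOS 1.3. How the authors summarised probes, subtracted background and scaled the intensity values is not given in the sources used here. Of 17213 clusters, 15146 had 1 gene symbol in the platform annotation, 1278 several and 789 none.

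Negative signals were raised to 0, 16 was added, and the log2 of the sum was modelled by limma 3.58.1 (lmFit, eBayes; R 4.3.3) on all 6 arrays with no block, 4 residual degrees of freedom and Benjamini-Hochberg adjustment over all clusters at 0.05. No filter or normalization was applied. The log2 scale with a pseudocount understates the change of dim genes. Errors are SD of 3 arrays for signals and moderated SE for differences, and 3 arrays against 3 cannot give an exact p under 0.1. The number of arrays limits the precision. The fit was also run on simulated data with independent noise in each cluster and no shift of whole arrays. That run therefore does not cover the shifts between arrays seen here.

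Genes and lists were chosen with earlier results of these data known. The members named, 45 by rule, are those called, the 3 largest and the smallest differences per class, catalytic cores and isoform sets. From each further list the called genes and the 2 largest differences were named, 22 genes with Ptbp1. Uqcrq, Ndufs6 and any other gene named were chosen after their values were seen. Lists got no test. Promoters came from RefSeq (GRCm38.p6). Python 3.11.15 and matplotlib 3.10.9 made the plots. Array weights, trended and robust eBayes, 3 ways of scaling, other pseudocounts, dim filters, a replicate block and leaving out each array were tried as alternatives, with centring on the members' median added after the data had been seen.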

Additional observations from a re-analysis of the deposited data

How the results depend on the processing

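The adjusted calls rest on the exact setting. The differences of 11 called genes (Ptbp1, Ndufv2, Ndufs4, Ndufaf7, Cmc1, Bcs1l, Surf1, Cox15, Foxred1, Yy1 and Lonp1) kept their sign in every alternative run. For all 11 the groups did not overlap, so that only the 3 ways of scaling could have changed a sign. Members called lower numbered 3 as deposited, of which 2 in complex I and 1 assembly factor. With array weights 9 members were called lower (5 in complex I, 1 each in complexes III, IV and V), with trend and robust eBayes 13 (7, 2, 1 and 1, with 2 assembly factors), and with a pseudocount of 50 there were 7 (4 in complex I, 1 in complex IV, 2 assembly factors). Leaving out the dimmest 30% of clusters gave 12 (6 in complex I, 2, 1 and 1 in complexes III, IV and V, 2 assembly factors), and leaving out the dimmest 50%, which kept 73 members, gave 20 (9, 2, 3 and 3, with 3 assembly factors). Centring each array on its median gave 1 in complex IV and 0 assembly factors, and quantile normalization 0 assembly factors. With a pseudocount of 1, with each array centred on the members' median, and without any 1 array (a range of 0 to 0) there were 0 in every class, with unadjusted p under 0.05 in 21, 9 and 17 to 35 members. No member was called higher in any alternative. Over all clusters the counts lower and higher were 580 and 234 as deposited, 1180 and 445 with array weights, 1502 and 463 with trend and robust eBayes, 132 and 84 with a pseudocount of 1, and 930 lower with a pseudocount of 50. They were 1386 and 499, and 2100 and 386, without the dimmest 30% and 50%, 48 lower with members' centring, 376 higher with median centring, 503 higher after quantile normalization, and 0 and 0 without any 1 array, where 3292 to 4555 clusters had an unadjusted p under 0.05.

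After quantile normalization the median log2 difference moved to -0.0897 over all members, -0.1088 in complex I, 0.1941 in complex II, -0.0312 in complex III, -0.0502 in complex IV, 0.0022 in complex V and -0.2138 in assembly factors. The median over all members lay between -0.40 and -0.18 without any 1 array. Members' centring moved the median of all clusters to 0.31, and leaving out the dimmest 30% and 50% moved it to -0.09 and -0.18, while the members' median was then 0.02, -0.29 and -0.30.

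Over all 76 members the count of negative differences went from 70 to 45 after quantile normalization and to 31 with members' centring. Single genes were followed through the alternatives only for the 45 members named by rule, Uqcrq, Ndufs6 and the 22 named genes outside the set, and of these the following uncalled ones changed sign. After quantile normalization the difference was 0.0746 for Atp5a1, 0.0193 for Atp5b, 0.0437 for Atp5e, 0.2866 for Atp5md, 0.0462 for Cox4i1, 0.0508 for Cox6a1, 0.0145 for Cox6b1, 0.1702 for Cox8a, 0.1205 for Ndufa1, 0.2812 for Ndufa4, 0.1391 for Ndufaf1, 0.1478 for Ndufs3, 0.0215 for Sdhb, 0.3179 for Sdhc, 0.0738 for Sdhd and 0.0828 for Uqcrc2. With members' centring, which subtracts the set's own shift by construction, it was 0.0158 for Atp5a1, 0.0145 for Atp5b, 0.2159 for Atp5e, 0.3031 for Atp5md, 0.0983 for Cox4i1, 0.0927 for Cox6a1, 0.1047 for Cox6b1, 0.0062 for Cox7b2, 0.0996 for Cox8a, 0.2253 for Cox8b, 0.0261 for Cycs, 0.2864 for Ndufa1, 0.2439 for Ndufa4, 0.2669 for Ndufaf1, 0.2411 for Ndufs3, 0.0145 for Ndufv1, 0.0697 for Sdhb, 0.2794 for Sdhc, 0.1878 for Sdhd, 0.2354 for Uqcr11, 0.1318 for Uqcrc2, 0.0121 for Uqcrfs1 and 0.0050 for Uqcrh. With array weights it was 0.0112 for Atp5md, -0.0235 for Cox6a2, 0.1057 for Cox8b, 0.0024 for Ndufa1 and 0.0759 for Ndufaf1, and with median centring 0.0157 for Atp5md. Without any 1 array the ranges that cross 0 were -0.1187 to 0.1415 for Atp5md, -0.1454 to 0.2533 for Cox6a2, -0.4357 to 0.0620 for Cox6b1, -0.3274 to 0.3956 for Cox8b, -0.1060 to 0.0237 for Ndufa1, -0.1597 to 0.0155 for Ndufa4, -0.1632 to 0.0743 for Ndufaf1, -0.0642 to 0.1191 for Ndufs1, -0.1541 to 0.0600 for Ndufs3, -0.0514 to 0.2643 for Ndufs6, -0.1075 to 0.0664 for Sdhc, -0.3297 to 0.0231 for Sdhd and -0.3325 to 0.2367 for Uqcr11. The cause of the shifts under array weights, quantile normalization and median centring was not tested.

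With the replicate number as a block, 0 members and 0 clusters were called in either direction, in every class, although 4671 clusters and 22 members had an unadjusted p under 0.05. The numbers were not taken as pairing the arrays, since nothing in the labels says that a number marks a shared day. Deviations from the group means correlated at 0.232, 0.055 and 0.258 for same-numbered arrays, and each array correlated best with its own number. Whether the arrays were paired is therefore not known. Values near 0 have no detection call, so the differences of dim rows such as Cox8b and Cox6a2 are the least certain.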
